A study of Mus musculus with 8 samples.

Results

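The data described here are the 4 control libraries of a series of 8 on mouse DN1 cells, the first T-cell precursors that lack both CD4 and CD8. They comprise 2 RNA-seq libraries and 2 libraries from ATAC-seq, an assay in which the Tn5 transposase cuts and tags accessible DNA. The other 4 libraries, in which Tcf7 and Lef1 had been deleted, were not used. Progenitors of the LSK phenotype (no lineage markers, with Sca-1 and c-Kit on the surface) came from the bone marrow of CreER+ WT mice, which carry the tamoxifen-activated recombinase but no floxed allele. They were cultured on OP9-DL1, a stromal line displaying the Notch ligand Delta-like 1, with 4-OH tamoxifen on days 3 to 5. On day 7 the Lin-CD8-CD4-CD44hi CD25- ckit+ cells were sorted. Which promoter drives the recombinase, how old the mice were, how many were pooled and whether replicates were separate cultures is not stated in the labels. A spread between replicates is therefore the spread between 2 libraries of each assay, which may be technical. With 1 group per assay no test was made, and every comparison below is a description.

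DN1 cells stand between multipotent progenitors and committed T cells. They still transcribe stem-cell and myeloid genes, while Notch signalling has begun to induce T-lineage regulators such as Tcf7 and, later, Gata3 and Bcl11b. An active promoter is usually cleared of nucleosomes around the transcription start, and this clearing is what ATAC-seq reads as a peak. Promoters rich in CpG dinucleotides can be cleared in cells that make little of the transcript, whereas tissue-specific genes with few CpGs tend to be opened by lineage factors.

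Expression is given in TPM, transcripts per 1000000, which is scaled to transcript length and so can be compared between genes. Paired values are those of replicate 1 and replicate 2, in that order. The tables held 24538 genes, of which 18876 and 19057 were above 0 TPM and 13188 and 13314 reached 1 TPM. Rpph1, the RNA component of ribonuclease P, took 19.3% and 19.2% of all TPM, so every other gene's TPM is lowered by that share. On log2(TPM + 1) the RNA libraries had a Pearson r of 0.989 across 24538 genes, which are not independent replicates. The ATAC peak lists held 103009 and 105227 peaks outside the mitochondrial genome, and 90.5% and 88.6% of them overlapped a peak of the other list. Sequencing depth per gene and per ATAC library is unknown.

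Transcripts of the sorted surface markers were checked against the gate. Kit, the receptor tyrosine kinase used in the sort, stood at 251 and 238 TPM, and Cd44 at 94.04 and 109 TPM. Cd4 was listed at 0 and 0.312 TPM, Cd8a at 0.942 and 1.98 TPM and Cd8b1 at 0.295 and 0.294 TPM. Kit and Cd44 were thus high and the coreceptor transcripts low. Il2ra, which encodes CD25, was at 136 and 133 TPM although the cells were gated as CD25-negative. Its start carried a peak in both lists.

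RNA of other cell types was also present. All 14 markers of the OP9-DL1 stroma were above 0, 13 of them at 1 TPM or more, and their sum was 904 and 925 TPM. Dll1, the ligand that the line carries, stood at 236 and 241 TPM and Cxcl12, a stromal chemokine, at 239 and 234 TPM. The list also holds Thy1, which early T cells make too. Markers of the B lineage summed to 18.04 and 16.8 TPM, with Pax5 and Vpreb1 listed at 0. Most of that sum came from Cd79b, at 9.64 TPM in both libraries, and Cd22, at 6.36 and 5.08 TPM. Only these 2 of the 8 markers reached a mean of 1 TPM, and both had a peak within 1 kb of the start in both lists. Markers of erythroid cells summed to 115 and 22.7 TPM, of which the globin gene Hbb-bt made up 111 and 16.0 TPM. The part of stromal cells in the results below was not tested. In bulk libraries, fewer cells of a type and less RNA per cell cannot be told apart.

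A gene was counted as open when both control lists had a peak with at least 1 base within 1 kb of its start, the start being taken from the RNA tables with regard to strand. By this rule 14496 of 24538 genes were open, a background of 59.1%. Openness climbed with expression and then levelled off. Of the 3870 genes listed at 0 TPM in both libraries, 515 were open (13.3%). The share was 22.2% of 1583 genes above 0 and under 0.1 TPM, 29.4% of 2881 genes from 0.1 to under 0.3 TPM and 39.1% of 2996 genes from 0.3 to under 1 TPM. It passed from a minority to a majority between 0.3 and 3 TPM, reaching 63.7% of 1986 genes from 1 to under 3 TPM. From 3 to under 10 TPM, 82.5% of 2668 genes were open, and from 10 to under 30 TPM, 93.8% of 3874 genes. Above that level the share hardly moved, with 96.3% of 3400 genes from 30 to under 100 TPM, 96.6% of 967 genes from 100 to under 300 TPM and 96.2% of 212 genes from 300 to under 1000 TPM. Of the 101 genes at 1000 TPM or more, 100 were open (99.0%).

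**Figure D1:**
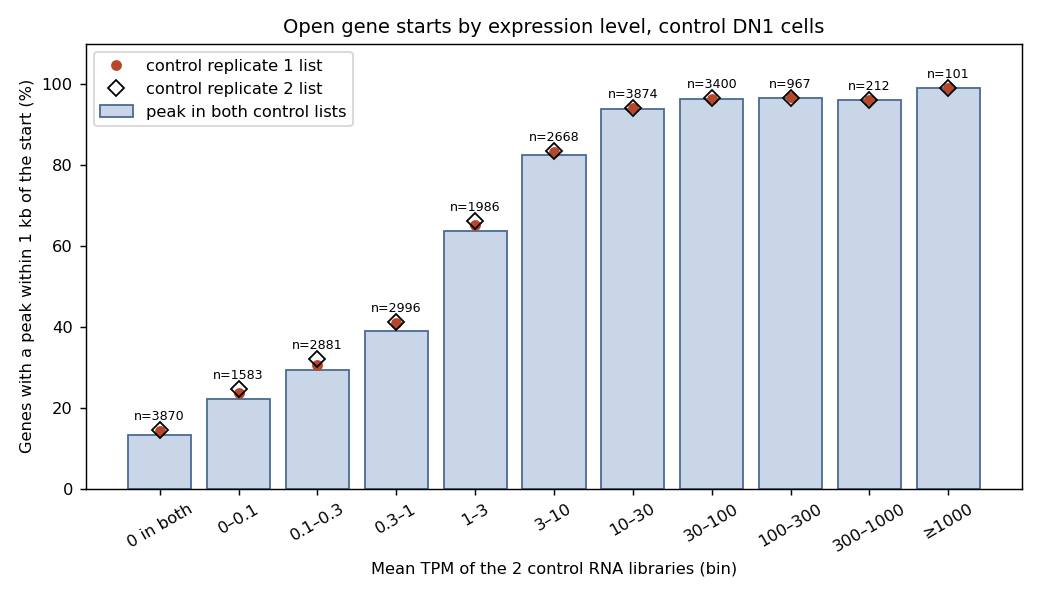
Share of genes (%, bars) with a peak within 1 kb of the start in both control lists, by bin of mean TPM over 2 RNA libraries, with the share in each list alone (circles, replicate 1; diamonds, replicate 2) and the number of genes per bin. The share rises from 13.3% of genes listed at 0 to 93.8% at 10 to under 30 TPM and is nearly flat above.

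The lists of both replicates gave almost the same curve. Among genes listed at 0 TPM, 14.3% had a peak in the replicate 1 list and 14.5% in the replicate 2 list, and from 10 to under 30 TPM the shares were 94.1% and 94.2%. Over all genes, 222 had a promoter peak in the replicate 1 list only and 321 in the replicate 2 list only. Split at 1 TPM, 87.9% of 13208 genes at or above that level and 25.4% of 11330 genes below it were open. At 10 TPM or more the background was 95.3% (8148 of 8554 genes), and at 100 TPM or more it was 96.7% (1238 of 1280). From 1 to under 10 TPM it was 74.5% (3465 of 4654). These shares are the background for the counts of open members below. Of the stroma markers, 9 of the 10 at 10 TPM or more were open.

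Peaks at open starts also differed in form along the scale of expression. The fold enrichment of a peak over local background, the value assigned by the authors' peak caller, had a median of 10.2 and 10.6 at the open genes listed at 0 TPM. It rose to 14.5 in both lists from 10 to under 30 TPM and was 12.7 in both from 300 to under 1000 TPM and 13.5 and 13.8 at 1000 TPM or more. The median −log10 q of the same peaks followed another course, at 138 and 141 from 10 to under 30 TPM, 163 and 151 from 300 to under 1000 TPM and 146 and 148 at 1000 TPM or more. Median peak width went from 332 and 337 bases at genes listed at 0 TPM to 580 and 582 bases from 10 to under 30 TPM, and it was 606.5 and 595.5 bases from 300 to under 1000 TPM. Across the 14496 open genes, Spearman's rho between mean TPM and fold enrichment was 0.212 and 0.207, and between mean TPM and peak width 0.386 and 0.380. Genes share a library and are not independent, so these are given without a test.

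**Figure D2:**
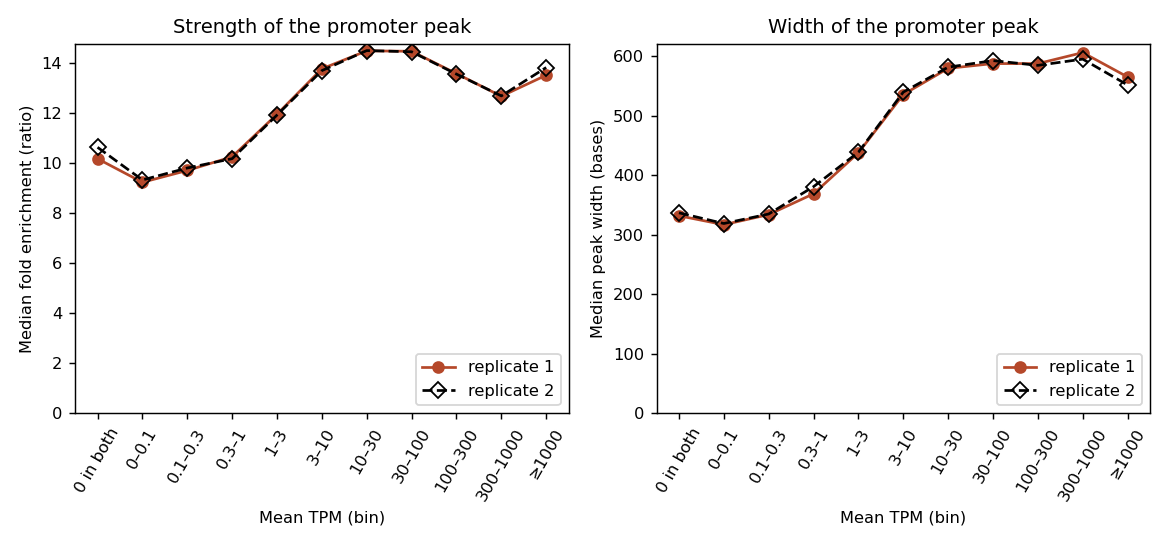
Median fold enrichment (left, ratio over local background) and median width (right, bases) of the promoter peak at open genes, by bin of mean TPM, for each control list. Both lists run together. Fold enrichment is highest from 10 to under 100 TPM, while width stays near its plateau up to the highest bin.

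Summits, the positions of greatest signal, lay close upstream of the start. The median offset was 40 bases upstream in both lists (-40 bases), with quartiles of -113 and 35 bases in replicate 1. At genes of 10 TPM or more, 81.2% and 81.0% of summits were within 250 bases of the start. That share was 72.3% and 72.5% for open genes from 1 to under 10 TPM and 55.8% and 56.4% for open genes under 1 TPM. Peaks credited to genes of low expression were thus more often away from the start itself.

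**Figure D3:**
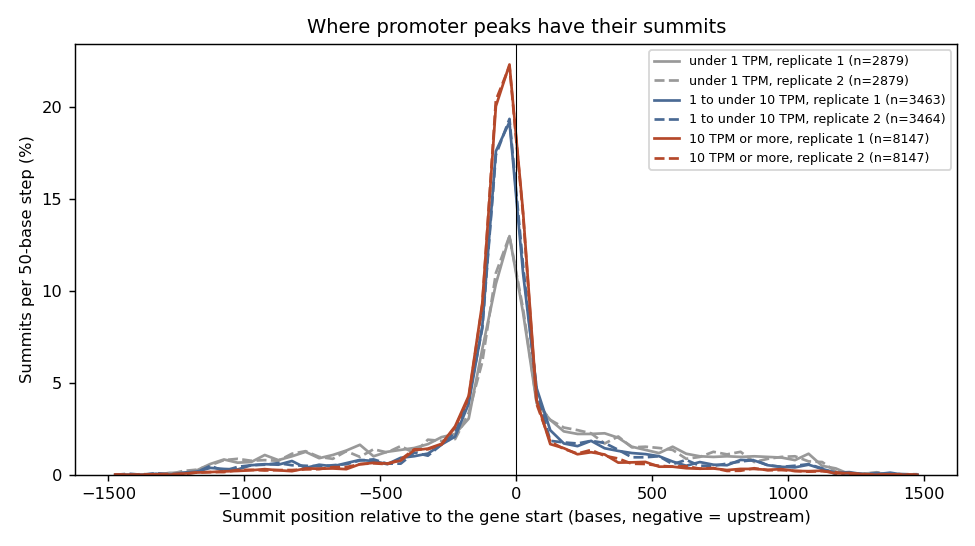
Position of the promoter peak's summit relative to the gene start (bases, negative upstream), as the share of summits per 50-base step (%), for open genes in 3 classes of mean TPM and both control lists. All curves peak just upstream of the start, and the curve for genes under 1 TPM has the lowest peak and the broadest flanks.

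Peaks within 1 kb of a start made up 16.7% and 16.5% of the lists. They were wider than the remainder, with a median of 437 against 260 bases in both lists, and 95.9% and 95.1% of them overlapped a peak of the other list, against 89.4% and 87.3% elsewhere.

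The genes of 3 classes were then described member by member: 101 transcription factor genes, 93 receptor and surface genes and 66 genes of granule proteins. Their median mean TPM was 22.0, 19.5 and 15.3, against 1.71 TPM over all genes. Summed over members, transcription factors held 6500 and 6480 TPM, receptors 5025 and 5114 TPM and granule genes 4786 and 4749 TPM. The 5 highest genes held 52.7% of granule RNA, against 39.3% for transcription factors and 29.3% for receptors. Granule genes are also the smallest class, so these shares do not compare classes at equal size. Of members at 10 TPM or more, the libraries differed by 1.5-fold or more for 2 of 63 transcription factors and for none of 57 receptors or 37 granule genes.

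**Figure D4:**
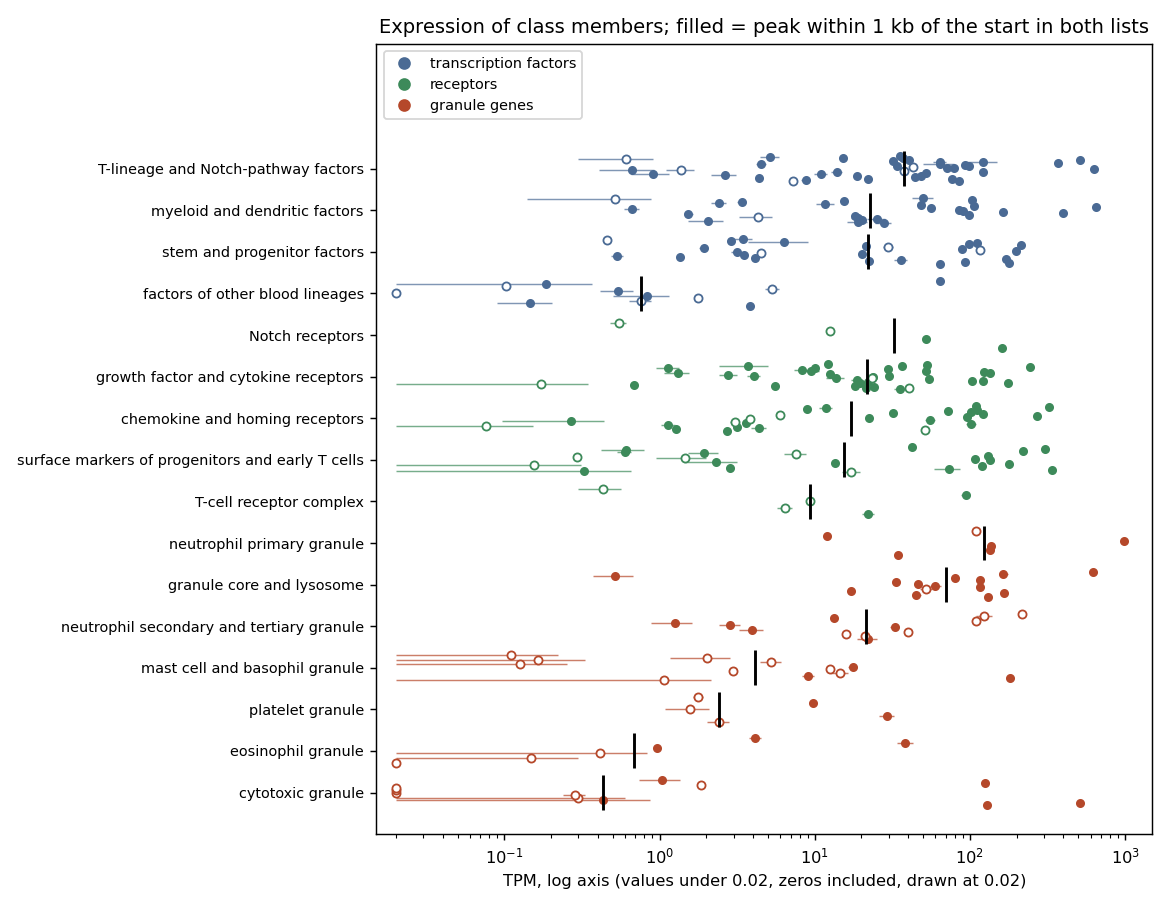
Mean TPM (log axis) of each member of the 3 classes by subclass, with a line joining the values of both RNA libraries and a black bar at the subclass median. Filled points are open in both lists and open circles are not. Unfilled points above 10 TPM are most frequent among the granule genes, in the neutrophil secondary and tertiary and the mast cell and basophil subclasses.

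Of the 101 transcription factor genes, 87 reached 1 TPM, 63 reached 10 TPM and 16 reached 100 TPM. Open starts were found for 85 (84.2%, against 59.1% of all genes), and for 59 of the 63 at 10 TPM or more (93.7%, against 95.3% of all genes at that level). Their openness at that level was therefore close to the background. The most abundant factor was Jun, a subunit of the AP-1 complex induced early by growth and stress signals, at 652 and 637 TPM (645 ± 11.0, SD, n = 2). Its promoter peak was broad, 1013 and 1045 bases, with a fold enrichment of 7.47 and 7.44. The 250 bases before the start are printed below because Jun leads the class, and they hold 15 CpG dinucleotides and 61.2% GC. They lie at chr4:95052223-95052472 on the minus strand (RefSeq, GRCm38.p6, the assembly of mm10) and run 5′ to 3′ towards the gene.
Jun: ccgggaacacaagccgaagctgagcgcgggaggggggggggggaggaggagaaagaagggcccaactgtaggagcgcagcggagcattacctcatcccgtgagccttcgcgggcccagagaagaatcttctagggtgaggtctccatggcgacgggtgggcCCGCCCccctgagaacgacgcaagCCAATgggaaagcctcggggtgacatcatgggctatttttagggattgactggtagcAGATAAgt
Capitals here and below mark matches, on either strand, to 7 short motifs searched in these 250 bases. Shares of 32851 RefSeq promoters of that length holding each motif are given for scale, since a match is a description and not a binding site. The TATA box, searched as TATAAA, occurs in 12.4% of them, the GC box, searched as GGGCGG, in 32.7%, and the CCAAT box, searched as CCAAT, in 33.8%. A motif of the ETS family, searched as AGGAAG, occurs in 29.5%, and one of the RUNX family, searched as TGTGGT, in 14.0%. A motif of the GATA family, searched as AGATAA, occurs in 9.99%, and one of the TCF family, searched as CTTTGA, in 13.8%. The matches upstream of Jun are to the GC box, the CCAAT box and the GATA motif, and none of them overlap.

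Factors of the T lineage and the Notch pathway were led by Myb, needed by progenitors and early thymocytes, at 622 and 638 TPM, and by Tcf7, which encodes TCF1, at 518 and 509.6 TPM (514 ± 6.32, SD, n = 2). Tcf7 had a weak promoter peak for its level, with a fold enrichment of 5.35 and 5.01 and a nearest edge 192 and 217 bases from the listed start. Sox4 followed at 370.2 and 365 TPM, Ikzf1, which encodes Ikaros, at 123 and 121 TPM, and the E-protein gene Tcf3 at 94.2 and 148 TPM. The libraries disagreed most on Tcf3 and on Satb1, a chromatin organiser, which was at 78.7 and 49.8 TPM. The commitment factors came lower in the class. Gata3 stood at 45.4 and 43.4 TPM and was open. Bcl11b stood at 9.30 and 8.16 TPM, and its nearest peak began 545 and 587 bases from the start. Lef1, the partner of Tcf7 in its family, was at 1.66 and 1.099 TPM with a promoter peak in the replicate 2 list only. Of the 38 genes of this subclass 33 were open, with 26 of 28 at 10 TPM or more, near the 95.3% of all genes. Among those above 10 TPM only Rbpj and Ikzf2 had no promoter peak in either list. Rbpj, the DNA-binding effector of Notch signalling, stood at 42.02 and 44.04 TPM. It had 11 peaks shared by both lists within its span and was open at another RefSeq start. Ikzf2, which encodes Helios, stood at 39.3 and 36.3 TPM, with its nearest peak just outside the window at 1159 and 1144 bases.

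Stem and progenitor factors had a median of 21.9 TPM, and 15 of the 26 reached 10 TPM. Myc, a growth regulator and Notch target, stood at 213 and 215 TPM, Ldb1, a bridging cofactor of LIM-domain proteins, at 195 and 199.7 TPM, and Etv6, a repressor of the ETS family, at 177 and 179.9 TPM. Hhex, a homeobox factor, was at 162 and 179 TPM. All of these were open. Lmo2, a LIM-domain protein of the stem-cell complex, stood at 118 and 114 TPM without a peak in the window, its nearest being 1988 and 1950 bases away. Mef2c stood at 31.7 and 27.4 TPM and was open only at another RefSeq start. Meis1, a partner of Hox proteins, was at 22.1 and 20.9 TPM, Hoxa7 at 20.9 and 19.7 TPM and Hoxa9 at 4.48 and 4.56 TPM. Of the 26 genes 22 were open, with 13 of 15 at 10 TPM or more. Hoxa9 shows how the window decides a call, since its nearest peak was 1061 bases away in both lists. Just inside the window lay Klf1, an erythroid factor, whose peaks began 987 and 978 bases from its start.

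Myeloid and dendritic factors were open at 24 of 26 genes and at all 19 that reached 10 TPM, against 95.3% of all genes. Jun led this subclass, followed by Fos at 401 and 392 TPM. Fosb, at 158 and 167 TPM, and Junb, at 109.9 and 101 TPM, were also among its highest. These AP-1 genes are made in many cell types, so their levels and open starts are not particular to myeloid cells. Spi1, which encodes PU.1, a master regulator of myeloid and early lymphoid progenitors, stood at 107 and 101 TPM, with a fold enrichment of 16.8 and 15.9 at its start. Irf8, required for monocytes and dendritic cells, was at 57.8 and 54.7 TPM and Cebpa, the regulator of granulocyte precursors, at 21.4 and 18.7 TPM. Both had open starts. Cebpe, which acts late in granulocyte maturation, was at 3.27 and 5.30 TPM with a peak in the replicate 1 list only. Mitf, a regulator of mast cells and pigment cells, had the strongest promoter peak among them, with a fold enrichment of 28.0 and 27.8, at 3.62 and 3.15 TPM. A strong peak and a low transcript level thus occurred together in the same gene.

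Factors of other blood lineages were mostly low, with a median of 0.760 TPM over 11 genes. Zfpm1, which encodes the GATA cofactor FOG1, was the exception at 61.4 and 66.3 TPM. Gata1, the erythroid and megakaryocyte regulator, was at 1.84 and 1.72 TPM without a promoter peak, and Pax5, the B-cell commitment factor, was listed at 0 without one. Of the 11, 6 were open, among them Tbx21 and Eomes, the T-box factors of cytotoxic and NK cells, at 0.369 and 0 TPM and at 0.203 and 0.0896 TPM.

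Of the 93 receptor and surface genes, 82 reached 1 TPM, 57 reached 10 TPM and 22 reached 100 TPM. Open starts were found for 75 (80.6%), for 52 of the 57 at 10 TPM or more (91.2%, against 95.3% of all genes) and for all 22 at 100 TPM or more (against 96.7%). Among Notch receptors, Notch1, which receives the T-lineage signal, stood at 159 and 161 TPM and Notch2 at 51.6 and 52.2 TPM, both open. Notch3 was at 11.9 and 13.0 TPM without a promoter peak and Notch4 at 0.607 and 0.483 TPM with one in the replicate 2 list only. The level order was Notch1, Notch2, Notch3, Notch4 in both libraries, with no overlap between neighbours.

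Growth factor and cytokine receptors were open at 33 of 36 genes, with 24 of 26 at 10 TPM or more (92.3%, near the 95.3% of all genes). Kit led them, followed by Fcer1g, the signalling chain of Fc receptors, at 170 and 184 TPM, Il2ra, and Il2rg, the common gamma chain, at 124 in both libraries. Flt3, the receptor of early lymphoid progenitors, was at 20.5 and 18.6 TPM and Il7r, the survival receptor of early lymphocytes, at 10.5 and 9.64 TPM. Both had strong promoter peaks, with a fold enrichment of 18.6 and 18.5 at Flt3 and of 19.9 and 21.2 at Il7r. Csf1r, the receptor of macrophage colony-stimulating factor, stood at 39.4 and 41.3 TPM with a peak only in the replicate 1 list. Il12rb1, a chain of the interleukin-12 receptor, stood at 22.7 and 23.8 TPM with its nearest peaks 1492 and 1509 bases away. Il2rb and Il9r were low, at 1.07 and 1.54 TPM and at 1.33 and 0.952 TPM, and open.

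Among homing receptors, the integrin gene Itga4 stood at 270.3 and 274 TPM and Itgal, the alpha chain of the integrin LFA-1, at 123 and 119.6 TPM. Both were open, and Itga4 had the broadest promoter peak of the subclass at 1264 and 1275 bases. The thymus-homing receptors Ccr9, at 1.02 and 1.25 TPM, and Ccr7, at 3.31 and 3.00 TPM, were open at low transcript levels. Ccr2, a monocyte chemokine receptor, stood at 49.9 and 52.5 TPM and was not open, with its nearest peaks just outside the window at 1092 and 1090 bases. With a window of 2 kb Ccr2 was open. Of the 26 genes 21 were open, with 13 of 14 at 10 TPM or more (92.9%) and 7 of 10 from 1 to under 10 TPM (against 74.5% of all genes).

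Surface markers of progenitors and early T cells were led by Cd24a, at 338 and 339 TPM, Spn, which encodes CD43, at 307 and 302 TPM, and Ptprc, the pan-leukocyte phosphatase CD45, at 207 and 232 TPM. The progenitor markers Cd34, at 125 and 116 TPM, and Cd93, at 129.8 and 133 TPM, stood beside Cd7, a marker of early T and NK cells, at 107 and 109 TPM. All of these were open. Cd27, a costimulatory receptor, differed between libraries at 59.1 and 86.9 TPM. Ly6a, which encodes the Sca-1 antigen used to sort the starting progenitors, stood at 6.36 and 8.76 TPM, with its nearest peaks 5000 and 5011 bases away. Of the T-cell receptor complex, Cd3g, a CD3 chain, stood at 88.2 and 99.9 TPM and was open. The neighbouring Cd3d, at 5.70 and 7.12 TPM, had no peak in the window but was open with a window of 2 kb. Cd3e, at 9.69 and 8.995 TPM, had a peak in the replicate 2 list only. The 3 CD3 chains therefore differed in level. The difference in their starts depended on the window for Cd3d and on a single list for Cd3e.

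Granule proteins are the proteases, defensins and binding proteins that neutrophils, mast cells, cytotoxic cells and platelets store for release. Of the 66 genes, 52 reached 1 TPM, 37 reached 10 TPM and 17 reached 100 TPM, close to the shares of the other classes, but fewer of their starts were open. Open starts were found for 37 genes (56.1%, against 59.1% of all genes at any level). At 10 TPM or more, 27 of 37 were open (73.0%, against 95.3%), and at 100 TPM or more 13 of 17 (76.5%, against 96.7%). From 1 to under 10 TPM, 7 of 15 were open (46.7%, against 74.5% of all genes), whereas the transcription factors, at 18 of 24 (75%), and receptors, at 18 of 25 (72.0%), were near that background. No test was made of these differences. Markers of neutrophils, of which 6 of 8 are members of the granule class, summed to 1589 and 1598 TPM, but Ly6g, the defining antigen of mature neutrophils, was at 0.764 and 0.509 TPM.

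**Figure D5:**
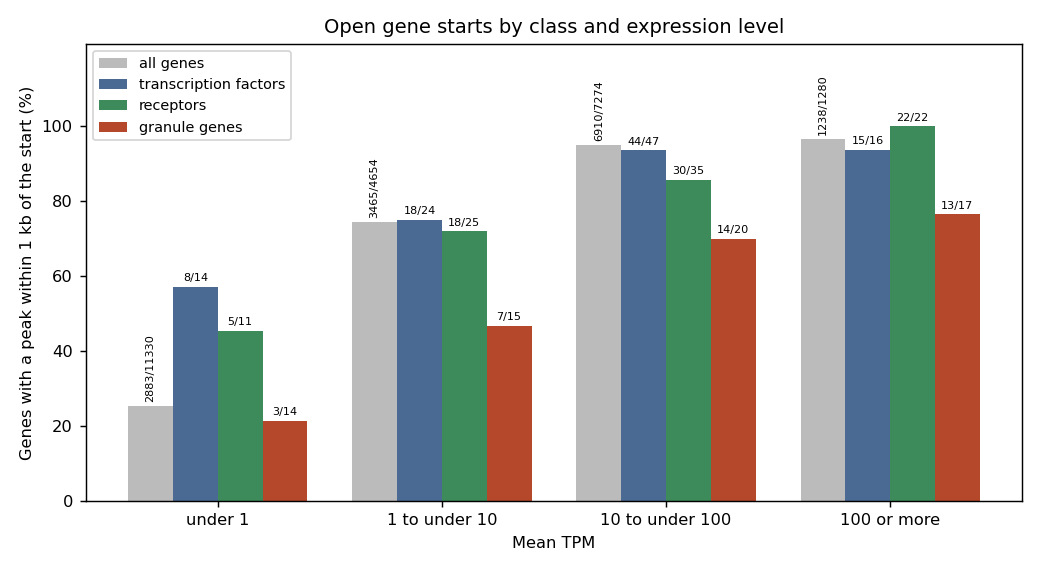
Share of genes open in both lists (%, bars from 0) in 4 classes of mean TPM, for all genes and for the 3 gene classes, with the number open over the number of genes above each bar. The granule genes are lowest in every class of TPM, at 13 of 17 even among genes at 100 TPM or more.

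Primary granule genes of neutrophil precursors were open at 5 of 6, all at 10 TPM or more. Mpo, which encodes myeloperoxidase, was the most abundant gene of the 3 classes at 980.4 and 979 TPM (979.6 ± 1.03, SD, n = 2), but its peak was modest, with a fold enrichment of 5.53 in both lists and a summit 228 and 261 bases upstream. Elane, neutrophil elastase, stood at 131 and 142 TPM and Ctsg, cathepsin G, at 134 and 136 TPM, both open. Prtn3, which encodes the related proteinase 3, was at 116 and 104 TPM without a peak in the window, its nearest being 1359 and 1349 bases away. Genes of similar level and related function thus differed in the state of their starts in this window. The difference depended on the window, since Prtn3 was open with a window of 2 kb.

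Secondary and tertiary granule genes, which belong to later stages of the neutrophil lineage, were open at 6 of 12, and at 3 of the 9 that reached 10 TPM (33.3%, against 95.3% of all genes). The most abundant of them were not open. S100a9, a subunit of calprotectin, stood at 224 and 212 TPM (218 ± 8.19, SD, n = 2), the highest of any class member without a peak, and its nearest peaks were 1914 and 1890 bases away. Its partner S100a8 stood at 110.03 and 138 TPM with a peak in the replicate 2 list only. Calprotectin is mainly a cytosolic protein, and its subunits were counted here with the granule genes. Both S100a8 and S100a9 were open with a window of 2 kb. Ngp, the neutrophilic granule protein, stood at 115 and 104 TPM, and its nearest peaks were 7998 and 7990 bases away, with none inside the gene. Lcn2, the iron-siderophore binding lipocalin, at 39.3 and 40.2 TPM, Chil3, at 22.1 and 19.8 TPM, and Cybb, the oxidase subunit, at 16.4 and 15.6 TPM, also lacked a peak at the start. By contrast Mmp8 and Mmp9, metalloproteinases of these granules, were open at 2.43 and 3.30 TPM and at 1.62 and 0.882 TPM.

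Cytotoxic granule genes fell into very high and very low members. Gzmb, granzyme B, stood at 507 and 524 TPM with a strong peak, a fold enrichment of 22.0 and 22.9 and a summit 40 and 41 bases upstream. Gzma, at 134 and 126 TPM, and Nkg7, a granule membrane protein, at 125 and 126 TPM, were open. The other 8 genes were at or below 1.92 TPM in both libraries, and Gzmf, Gzmg and Gzmk were listed at 0 without a peak. Gzmc, at 0 and 0.868 TPM, and Prf1, the pore-forming perforin, at 0.735 and 1.35 TPM, had strong peaks all the same, with a fold enrichment of 17.2 and 14.5 and of 14.0 and 13.2.

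Mast cell and basophil granule genes were open at 3 of 12. By level this was 2 of 4 at 10 TPM or more (against 95.3% of all genes), 1 of 5 from 1 to under 10 TPM (against 74.5%) and none of 3 under 1 TPM (against 25.4%). Cpa3, mast cell carboxypeptidase, stood at 179 and 181 TPM with a fold enrichment of 7.33 and 7.92. Mcpt8, the basophil protease, was open at 18.9 and 16.3 TPM. Mcpt1 and Mcpt4, chymases from the same gene cluster, were at 16.4 and 12.8 TPM and at 12.9 and 12.1 TPM with the nearest peak of replicate 1 at 16573 and 6690 bases. Reads of such related genes may have been split between members, which was not examined, so single levels in this cluster are uncertain. Eosinophil genes included Prg2, the major basic protein, open at 42.8 and 33.8 TPM, and its paralogue Prg3, with a far stronger peak, a fold enrichment of 26.6 and 27.3, at 3.75 and 4.48 TPM. The platelet genes were low apart from Pf4, platelet factor 4, open at 26.0 and 32.2 TPM.

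Genes of the granule core and of lysosomes, which many blood cells share, were open about as often as all genes of their level. Of 14, 13 were open, with 12 of the 13 at 10 TPM or more (92.3%). Srgn, the serglycin core protein on which granule contents are packed, stood at 624 and 613 TPM, Ctsd, cathepsin D, at 169 and 164 TPM and Lyz2, lysozyme M, at 175 and 153 TPM. Only Ctss, cathepsin S, at 47.8 and 57.1 TPM, was not open in both lists, having a weak peak in replicate 1 alone.

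The sequences before the starts of 4 granule genes are given because all 4 exceeded 100 TPM and they differ in openness. Both open genes were more abundant than both genes that were not open. Mpo and S100a9 are the most abundant class genes with and without a peak, and Gzmb and Ngp were chosen after their values were seen, as the granule gene at 100 TPM or more with the strongest peak and the one farthest from any peak. All are 250 bases, 5′ to 3′ towards the gene, from RefSeq on GRCm38.p6. Mpo is at chr11:87793534-87793783 on the plus strand and Gzmb at chr14:56262335-56262584 on the minus strand. S100a9 is at chr3:90695722-90695971 on the minus strand and Ngp at chr9:110419558-110419807 on the plus strand.
Mpo (open): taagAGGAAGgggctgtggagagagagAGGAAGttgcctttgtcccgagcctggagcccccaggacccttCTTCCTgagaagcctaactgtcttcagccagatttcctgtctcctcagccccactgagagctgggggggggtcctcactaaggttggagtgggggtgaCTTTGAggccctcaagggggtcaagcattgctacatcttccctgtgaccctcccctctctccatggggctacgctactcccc
Gzmb (open): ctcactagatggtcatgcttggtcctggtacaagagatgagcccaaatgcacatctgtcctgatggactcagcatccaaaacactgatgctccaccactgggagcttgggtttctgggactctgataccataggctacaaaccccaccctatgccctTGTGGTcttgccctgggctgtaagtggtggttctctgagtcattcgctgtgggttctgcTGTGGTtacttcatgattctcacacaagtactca
S100a9 (not open): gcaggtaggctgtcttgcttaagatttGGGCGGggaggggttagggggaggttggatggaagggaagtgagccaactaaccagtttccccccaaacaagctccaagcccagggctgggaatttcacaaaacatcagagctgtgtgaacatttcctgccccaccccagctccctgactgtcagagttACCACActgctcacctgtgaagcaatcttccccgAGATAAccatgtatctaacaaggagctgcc
Ngp (not open): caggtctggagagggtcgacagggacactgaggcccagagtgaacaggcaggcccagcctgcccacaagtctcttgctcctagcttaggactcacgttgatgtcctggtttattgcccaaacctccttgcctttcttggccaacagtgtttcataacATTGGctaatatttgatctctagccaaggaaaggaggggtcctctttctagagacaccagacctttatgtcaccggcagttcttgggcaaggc
The sequence before Mpo has ETS motif matches on both strands and a TCF match, and that before Gzmb has RUNX matches only. S100a9 has a GC box, a RUNX and a GATA match, and Ngp a CCAAT box alone. All 4 are poor in CpG, with 2 at Mpo, 1 at Gzmb, 2 at S100a9 and 3 at Ngp, open or not, against 15 at Jun.

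This low CpG content was general in the class. RefSeq promoters at the listed start were found for 54 of the 66 granule genes, and over 300 bases (250 before and 50 after the start) they had a median of 3 CpGs and 50% GC. The 25 of 29 granule genes that were not open and had a sequence also had a median of 3 CpGs. Of the 54, 33 held the ETS motif in the 250 bases before the start (61.1%, against 29.5% of all promoters) and 24 the RUNX motif (44.4%, against 14.0%). The GC box was present in 10 (18.5%, against 32.7%). Of the 25 that were not open, 14 held the ETS motif (56%), 10 the RUNX motif (40%) and 3 the GC box (12%). A link of these motifs to openness was not tested. Sequence was found for 71.3% of transcription factors, 72.0% of receptors and 67.7% of all genes. These shares are under the 80% of members required here, so the same figures are not given for them. The CpG median of the granule genes thus has no value for all genes beside it.

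A further 3 short lists completed the T-cell side. Of 10 Notch targets, 9 were open, including all 6 at 10 TPM or more, near the 95.3% of all genes at that level. They included Myc, Il2ra, Dtx1, a Notch regulator, at 54.8 and 51.9 TPM, and Hes1, a repressor induced by Notch, at 47.2 and 49.7 TPM. Heyl was open while at 0 and 0.0781 TPM. Ptcra, which encodes the pre-T-cell receptor alpha chain, was at 0.564 and 0.297 TPM and the only one without a peak at its start. Of 18 genes of T-cell signalling, 14 were open, including all 11 at 10 TPM or more, again near the background of 95.3%. Lck, the kinase of the coreceptors, stood at 153 and 149.9 TPM and Lat, the membrane adaptor, at 88.2 and 85.0 TPM, whereas Zap70, the kinase of the receptor chains, was at 1.03 and 0.309 TPM without a promoter peak. Of 8 genes of antigen receptor rearrangement, 7 were open, with 4 of 5 at 10 TPM or more. Rag1 and Rag2, the recombinase subunits, were low at 7.72 and 7.15 TPM and at 6.25 and 4.99 TPM, and open. Dntt, the terminal transferase that adds bases at the joints, was far higher at 117 and 111 TPM and had no promoter peak, its nearest being 1735 and 1725 bases away, although 4 shared peaks lay within its span.

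Among all genes at 10 TPM or more, 365 had no promoter peak in either list and 41 had one in 1 list only. Of the 365, 78 had names of small RNAs and 4 of histones. Of the other 283, 207 had a peak shared by both lists inside the gene and 76 had none. RefSeq starts were available for 201 of these 283, and 110 of the 201 were open at a start other than the one listed. The most abundant were Fth1, the ferritin heavy chain, at 1245 and 1259 TPM, Rpl22, a ribosomal protein, at 908 and 900.2 TPM, and Ywhaz, a 14-3-3 protein, at 330.3 and 326 TPM. Fth1 and Rpl22 were open at another RefSeq start, as were Pdcd4, a translation inhibitor, at 280.3 and 270.3 TPM, Gpx4, a peroxidase, at 257 and 271 TPM, and Dnmt1, the maintenance DNA methyltransferase, at 216 and 202 TPM. S100a9 was in the RefSeq table and was not open at any start there, and neither was Adgrg3, an adhesion receptor, at 208 and 199 TPM. Erdr1 and Sept9, at 234 and 218 TPM and at 214 and 231 TPM, completed the 10 highest. Adding every RefSeq start opened 5 more transcription factors (Lef1, Mef2c, Rbpj, Sox6 and Tox2) and 1 receptor (Cd160), but no granule gene.

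At the opposite end, 515 genes listed at 0 TPM in both libraries were open and 3355 were not. A start of a gene at 1 TPM or more lay within 2 kb for 68 of the open genes (13.2%) and for 53 of the others (1.58%). Among the strongest with no other start within 2 kb, ranked by the lower −log10 q of the lists, were Defb47, Hey2, Fam159b, Ankrd2, Cyp46a1, Zfp389, Tmem95, Fam92b and Cxcl9. Their summits were not all at the start, ranging from 39 and 43 bases upstream at Fam92b to 1083 and 1097 bases downstream at Defb47. Cxcl9, an interferon-induced chemokine, had a fold enrichment of 22.9 and 21.5 with the summit 542 and 553 bases downstream. Hey2, a repressor of the Notch-responsive Hey family, had a fold enrichment of 18.5 and 18.8 with the summit 103 bases upstream in both lists. Its upstream sequence, chosen after its values were seen to set beside the granule genes, lies at chr10:30842784-30843033 on the minus strand, with 22 CpGs and 71.6% GC.
Hey2 (open, listed at 0): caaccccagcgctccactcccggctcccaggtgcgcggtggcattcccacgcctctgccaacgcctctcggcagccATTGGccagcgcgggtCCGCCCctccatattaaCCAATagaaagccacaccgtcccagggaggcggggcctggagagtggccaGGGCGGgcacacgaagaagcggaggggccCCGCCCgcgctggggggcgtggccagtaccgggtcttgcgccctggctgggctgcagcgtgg
Its matches are to the GC box and the CCAAT box. Ngp and Hey2, both picked for their values, are thus opposite cases by choice. The first was transcribed with no peak at a start of 3 CpGs and the second was listed at 0 with a strong peak at a start of 22. Mpo, with 2 CpGs, and Gzmb, with 1, were open, and a link of CpG content to openness was not tested.

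Genes of other tissues differed by kind. Of 28 developmental regulators of other tissues, at a median of 0.122 TPM, 13 were open, whereas of 28 terminal genes of other tissues, at a median of 0.159 TPM, 4 were open. Among the regulators, Pdx1, of the pancreas, Nkx6-1, of pancreas and neural tube, and Foxa2, of the endoderm, were listed at 0 and open. Gata6, a regulator of heart and endoderm, was open at 1.86 and 1.65 TPM, whereas Hnf4a, a liver regulator, was higher at 1.90 and 2.63 TPM and not open. Terminal genes such as Alb, serum albumin, Ins2, insulin, and Prl, prolactin, were listed at 0 without a peak. The exceptions included Syn1 and Syp, of synaptic vesicles, open at 1.21 and 0.834 TPM and at 0.865 and 0.962 TPM. Those counts are for all levels. Under 1 TPM, 11 of 25 regulators (44%) and 3 of 26 terminal genes (11.5%) were open, against 25.4% of all genes. Olfactory receptor genes were almost uniformly closed, with 26 of 1107 open (2.35%) at a median of 0.168 TPM, and their promoters had a median of 1 CpG. Ribosomal protein genes marked the other end, with 79 of 85 open (92.9%) at a median of 1611 TPM.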

How the data were processed

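The submitters' processing notes name HISAT2, StringTie, Bowtie2, MACS2 and the mm10 build, without versions. The authors' tables hold TPM, which sums to 1000000 per library, FPKM, used only as an alternative, and an unscaled coverage signal, per the file headers, whose median ratio to FPKM was 2.41 and 2.12 and follows relative depth. The deposited peak lists, 1 per library, hold a score, a fold enrichment (a ratio) and −log10 p and q values, with a lowest −log10 q of 2.82 and 2.87. Peak thresholds, duplicates, any transposase shift and strand are not stated in the labels, and read counts were not used. Peak lists give presence, not a tested difference.

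A gene with several entries had its TPM summed and was open if any entry's start was. Means and SD are over 2 libraries, computed with pandas 2.3.3 and NumPy 2.4.6 in Python 3.11.15, with no filter. The promoter counting was tested on simulated peaks. RNA and ATAC replicates were not paired. Members, lists and windows were chosen with earlier results of these data known. Named were list members, leading with the 5 highest of a subclass, and the 10 highest genes overall (among them Rpph1, Rn45s, Gm15772, Eef1a1, Rps23, Rpl23a, Rpsa, Rplp1 and Actb), without a promoter peak, and open but listed at 0. A few genes that this rule names are not reported here. Alternatives were other windows, summits, a stricter −log10 q of 10, reciprocal overlap of 50%, FPKM, left-out libraries and genes with other starts. Marker sums of the remaining cell types were 132 and 142 TPM for megakaryocytes, 10.3 and 11.5 for NK and innate lymphoid cells, 411 and 408 for dendritic cells, 257 and 242 for monocytes and macrophages, 222 and 218 for mast cells and basophils, and 27.2 and 26.5 for mature T cells (5 of 8 markers matched).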

Additional observations from a re-analysis of the deposited data

How the results depend on the processing

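Of 339 values under alternatives for 24 results, 314 stayed within 1.5 times the main count or, for a class median, within the SD between libraries. The difference between RNA replicates under another added constant in log2(TPM + 1) was judged against the SD over genes instead. Some values could not move, since counts over all levels and over whole classes do not use TPM and stay the same when only TPM is changed. With a window of 2 kb, genes at 10 TPM or more without a peak fell to 235, and 31 of 37 granule genes at that level were open, against 96.8% of all genes. Leaving out an RNA library moved the median of receptors to between 20.1 and 20.2 TPM and that of transcription factors to between 20.9 and 21.8 TPM. It moved the open genes listed at 0 to between 860 and 907 and those above 0 and under 0.1 TPM to between 211 and 229. Leaving out an RNA library or using FPKM also changed how many genes each bin held, so these counts are not shares. Without RNA replicate 1, 15.7% of 5481 genes listed at 0 were open, against 13.3% in the main setting. Above 0 and under 0.1 TPM the share was 30.7% of 688 genes, against 22.2%. Using 1 ATAC list alone, with the bins of the main setting unchanged, gave 555 to 560 and 376 to 390 open genes in those 2 groups. FPKM in place of TPM shifted the scale, giving 866 open genes above 0 and under 0.1, 3337 from 3 to under 10, 1755 from 30 to under 100, 331 from 100 to under 300, 103 from 300 to under 1000 and 51 at 1000 or more, 215 genes at 10 or more without a peak, and medians of 10.6, 9.44 and 7.38 for transcription factors, receptors and granule genes. In that order the medians were 35.2, 23.5 and 33.2 TPM over members of at least 1 TPM, which puts granule genes above receptors, and 27.3, 24.2 and 18.9 TPM when TPM was rescaled without Rpph1, an alternative chosen after seeing the data, as was that of any RefSeq start. Without genes that have another start within 2 kb, fewer genes remained and 58 open genes reached 1000 TPM. A window of 500 bases closed Bcl11b, Erg, Fli1, Hoxa7, Klf1, Mecom, Csf2ra, Epor, Il1rl1, Cd63 and Lyz1. No paired analysis was possible because the control libraries form 1 group per assay. Without read counts, no counting error per gene can be given, and low TPM rests on few reads.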
